A study of Rattus norvegicus with 6 samples.

Results

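The antioxidant and glutathione genes of the rat lung were taken as 43 named genes, and the FPKM of all transcripts that carried a gene's name were summed in each library. Rows were found for 40 of the 43 genes, out of 21655 gene names in the series. No row carried the names Gstm2, Gstm5 or Srxn1, and these genes were not analysed here. The 40 genes comprised 91 of the 70376 transcripts, of which 54 matched an annotated transcript and 37 were assembled from the reads. The lungs came from Sprague-Dawley (SD) rats, 7 weeks old at the start, for which the labels name no genetic change. In the PF (pulmonary fibrosis) model group, 3 rats received a single intratracheal dose of bleomycin at 7 mg/kg, and the 3 control rats received the same volume of saline. Lung tissue was taken after 28 days, and the RNA of each rat, with rRNA removed, gave a library of its own. A single bleomycin dose injures the lung once and is followed by fibrosis, so the samples describe one late day of that course.

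Reactive oxygen species and electrophiles are removed by enzyme systems that draw on a pair of thiol carriers, glutathione and thioredoxin. Glutathione peroxidases reduce peroxides with glutathione, glutathione transferases attach glutathione to electrophiles, and peroxiredoxins reduce peroxides and most are restored by thioredoxin. Many of these genes are targets of NRF2 (encoded by Nfe2l2), a transcription factor that KEAP1 holds at low levels until electrophiles or oxidants modify KEAP1. NRF2 acts with small MAF proteins at the antioxidant response element. In the lung, alveolar type 2 cells, club cells and macrophages are known for high levels of several of these enzymes, and bleomycin itself forms oxygen radicals when it binds iron.

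The core of the antioxidant response element was searched in RefSeq promoters of the build GRCr8, from 250 bases before to 50 bases after each start, as TGACNNNGC on both strands. Of the 43 gene symbols, 35 matched, with 40 promoters because some genes have more than one start. Gsr, Gpx8, Gstt1, Gstt2, Mgst2, Prdx6, Sod3 and Hmox1 had no promoter of that symbol and were not searched. The core was present in 12 of the 40 promoters and in 4038 of 33469 promoters (12.1%) in the whole table. These 12 belonged to Gclm, Gpx2, Gsta3, Gstm5, Gstp1, Hmox2, Nfe2l2, Prdx1, Prdx4, Prdx5, Sod2 and Txnrd1, and Gstm5 held 2 matches. Of the 13 matches, 2 also contained TGACTCA, the AP-1 motif, which were those of Gstp1 and Prdx1. The following 4 stretches are shown because the matches lie upstream of the start in genes of 4 classes of the set whose values are described below. Each is written 5′ to 3′ on the strand of its gene, with the match in capitals. Those of Gclm (chr2:213031933-213032001) and Prdx1 (chr5:135383741-135383809) are on the plus strand, and those of Gstp1 (chr1:210769728-210769796) and Txnrd1 (chr7:22755944-22756012) are on the minus strand. The first base of the match lies at position -172 for Gclm, -61 for Gstp1, -135 for Prdx1 and -78 for Txnrd1, counted from the start. A match is a description of these letters and no record of binding.
Gclm: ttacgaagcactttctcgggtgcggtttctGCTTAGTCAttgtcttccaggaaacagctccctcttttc
Gstp1: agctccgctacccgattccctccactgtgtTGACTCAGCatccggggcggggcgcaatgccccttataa
Prdx1: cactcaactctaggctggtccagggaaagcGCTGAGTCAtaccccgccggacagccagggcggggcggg
Txnrd1: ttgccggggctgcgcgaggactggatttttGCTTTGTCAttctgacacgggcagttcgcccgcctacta

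FPKM (fragments per kilobase of transcript, scaled to the total of each library) were used as deposited. The ratio of coverage to FPKM implied a total of 42610915 to 48854072 units of 150 bases per library. Rows named after small RNAs held 34.2% to 46.4% of all FPKM. The tissue label was checked with markers: Sftpc, a surfactant gene of alveolar type 2 cells, was between 2410 and 4146 FPKM in the 6 libraries, and no marker found in the files was at 0 in all libraries. Some defining markers, such as Foxj1 of ciliated cells, Marco of macrophages and Pecam1 of endothelium, had no row of that name. Of 6 fibroblast markers, Col3a1, a fibrillar collagen, was 169 ± 13.1 FPKM in control and 208 ± 22.3 FPKM in model lungs (SD, n = 3 each), with groups that did not overlap and a limma p of 0.0366 (adjusted p = 0.933). The list as a whole was divided, with the 3 collagens Col1a1, Col1a2 and Col3a1 above 0 and Pdgfra (-0.06), Dcn (-0.13) and Lum (-0.10) below 0. Model 3 stood apart in some markers of airways and in markers of heart. In that library Bpifa1 was 95.8 FPKM (at most 0.135 in the others), Scgb3a1 was 47.0 (1.46 to 6.45) and Cyp2f4 was 33.8. Among markers of airway secretory cells, Scgb1a1 and Scgb3a2 were instead highest in control 3, at 7693 and 214 FPKM, against 6140 and 191 in model 3. Summed ciliated markers were also highest in control 3, at 43.4 against 35.0 in model 3. Myh6, a myosin of heart muscle, was 5.11 FPKM in model 3 (at most 0.034 in the others). Results are therefore also given without model 3. Adjusted p-values in these sentences are from limma with Benjamini-Hochberg adjustment over 19645 gene names. They weigh the group difference against the variation between 3 rats per group, which limma draws toward a trend over all genes. In whole lung, fewer cells of a type and less RNA per cell cannot be told apart.

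No antioxidant gene passed the test between PF model and control lungs. Of 40 genes tested, 0 had a limma adjusted p below 0.05, against 2 of all 19645 genes (0.0102%). At an unadjusted p of at most 0.05, 1 of the 40 passed, which was Gpx1, against 4.91% of all genes, and the counts were again 0 and 1 without model 3. The study's methods ask for a p of at most 0.05 and a log2 fold change at or beyond 1 in either direction. These thresholds were applied here to the limma p, not the study's own p, and to the log2 ratio of group mean FPKM. By them 0 of 40 passed, against 1.52% of all genes. The values of the 3 model and 3 control lungs did not overlap for 3 of the 40 genes, against 10.7% of all genes. Gpx1 and Txnrd2 were higher in each model lung (4.82% of all genes did so) and Gclm was lower (5.87%). The differences on the log2(FPKM + 1) scale ran from -0.23 for Gclm to 0.60 for Mgst2, with a median of 0.04 for the 40 genes and -0.007 for all genes. They were above 0 for 25 genes and below 0 for 15 (47.5% of all genes were above 0). After rescaling to TPM the split was 32 to 8, and 61.3% of all genes were then above 0. It was 29 to 11 after scaling without the rows named after small RNAs (56.6% of all genes above 0). Without model replicate 3 it was 14 to 26 (45.7%), and without model replicate 2 it was 31 to 9 (50.1%).

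**Figure D1:**
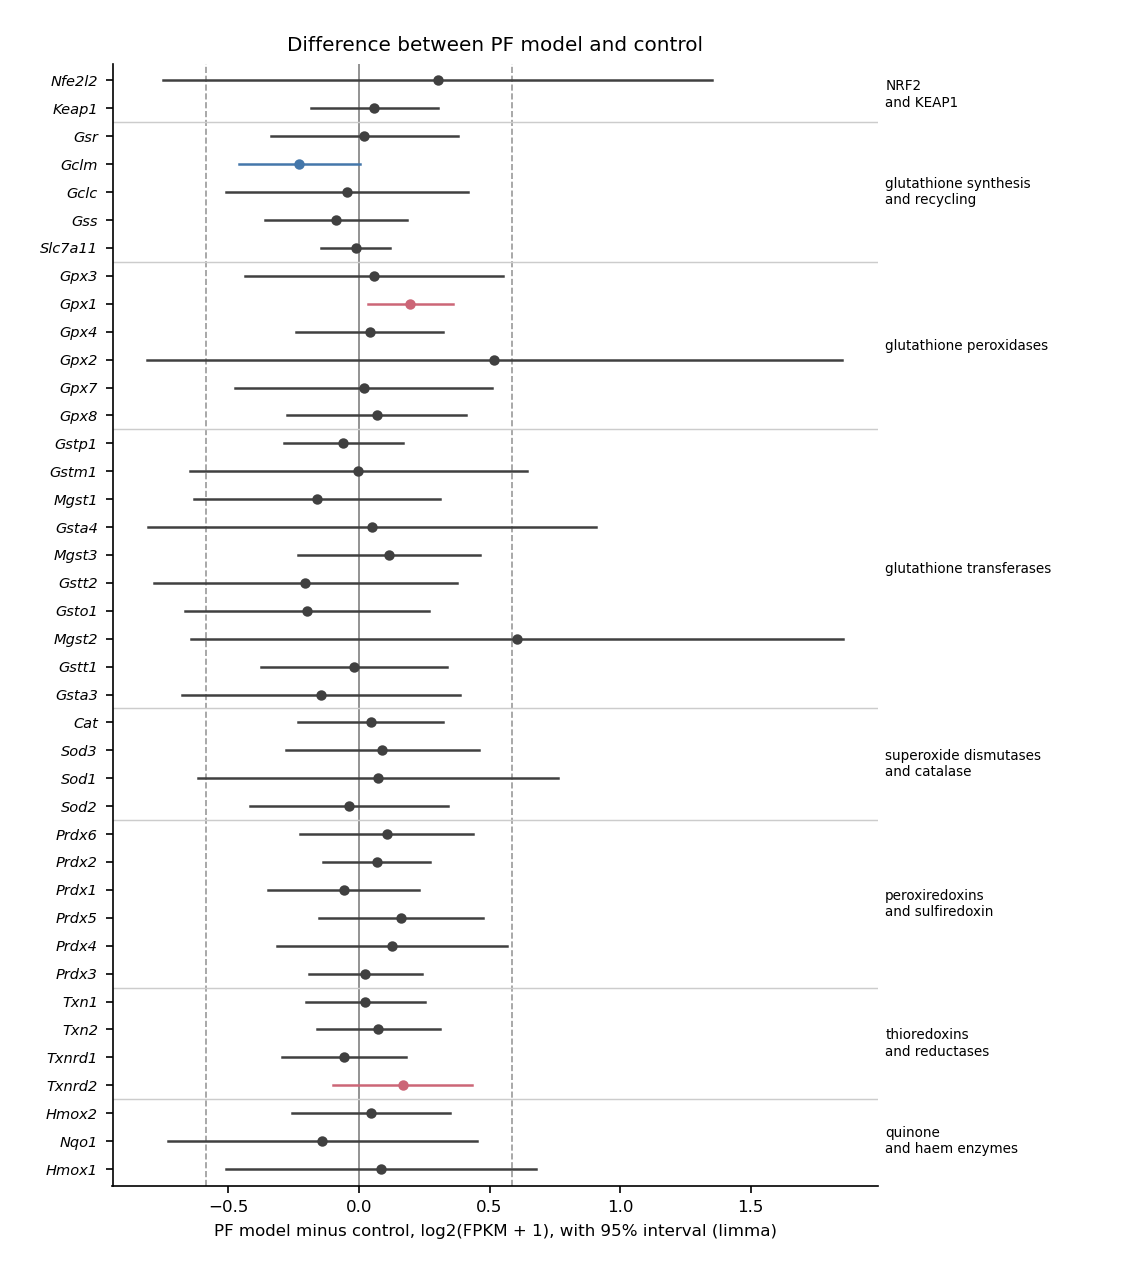
Difference between PF model and control lungs for the 40 genes, on the log2(FPKM + 1) scale, as points with 95% intervals from limma (3 rats a group). Dashed lines mark a 1.5-fold difference in either direction on that scale. Colour marks the genes whose groups did not overlap, red for Gpx1 and Txnrd2 (higher) and blue for Gclm (lower). Of the 40 intervals, 28 lie inside the dashed lines, and all but that of Gpx1 cross 0.

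The intervals set how large a difference could have been missed. For 28 genes, the 95% interval on the log2(FPKM + 1) scale lay within a 1.5-fold change in either direction, and for the other 12 it did not. The estimates were within 0.25 of 0 for 37 genes, the others being Nfe2l2, Gpx2 and Mgst2. Adjusted p-values were 0.933 or higher. A pseudocount of 1 shrinks the difference most for genes near or below 1 FPKM, which applies to Slc7a11 and Gsta3. Genes at a few FPKM are shrunk less. Gpx8, at a mean of 2.30 FPKM, had a difference of 0.07, against 0.10 as the log2 ratio of group mean FPKM. For such genes an interval within 1.5-fold on this scale is wider in FPKM itself. Slc7a11 was counted among the 28 with an interval from -0.14 to 0.12. At its mean of 0.122 FPKM, that interval does not bound the fold change in FPKM itself.

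The set was well expressed. The median of the mean FPKM was 14.2 for the 40 genes and 3.99 for all genes tested, and 37 of the 40 lay above the latter. Summed over the set, FPKM were 1197, 1068 and 1035 in the control lungs and 1167, 1005 and 1277 in the model lungs, which overlap. The means were 1100.0 ± 85.7 and 1149.7 ± 137 (SD, n = 3 each), a ratio of 1.05. Between 0.179% and 0.2503% of all FPKM in a library fell to the set. In each library, Gpx3, Prdx6, Gpx1, Gstp1 and Txn1 were its 5 most abundant genes and held 50.7% to 54.1% of its FPKM. Within groups, the median coefficient of variation was 14.9% for the set and 14.1% for all genes with a mean of at least 1 FPKM. Coverage corresponded to between 48.8 and 20034 reads per gene and library, apart from Slc7a11 with 27.97 to 80.5 reads.

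**Figure D2:**
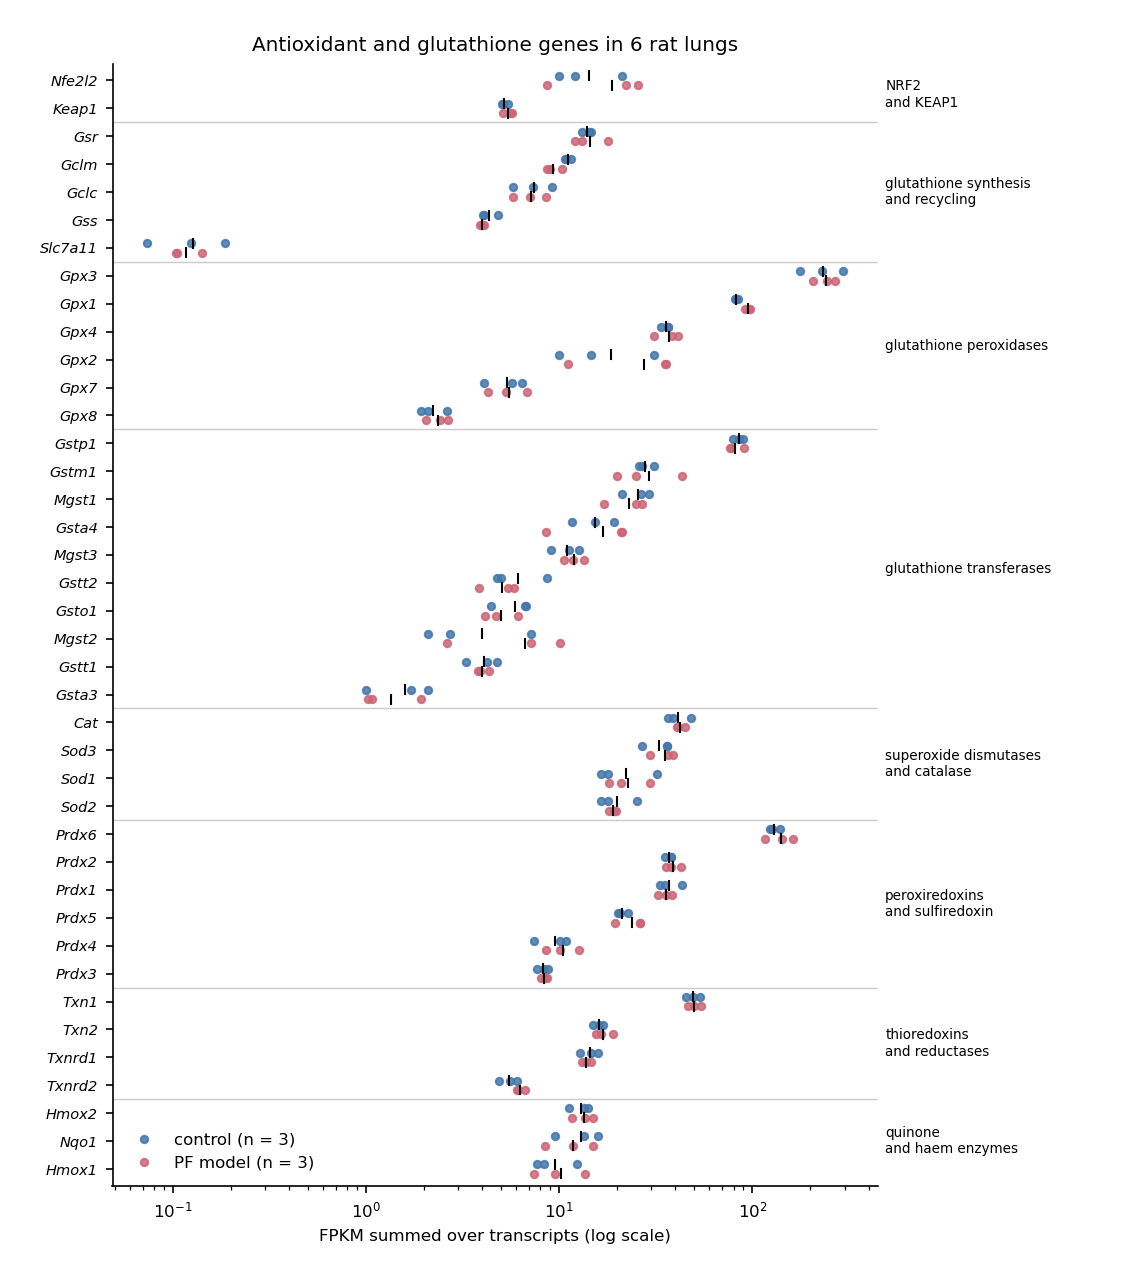
FPKM of the 40 genes, grouped by function, on a log axis. Each point is one lung, blue for control and red for PF model (n = 3 each), and black ticks are group means. Levels span from a mean of 0.122 FPKM for Slc7a11 to 236 FPKM for Gpx3, and the groups overlap for all genes but Gpx1, Gclm and Txnrd2.

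Of the regulators, Nfe2l2 varied more between lungs than Keap1 did. Nfe2l2 (chromosome 3, 62497571 to 62531836, minus strand; the genome build of the files is not given in the sources used here) was 21.0, 9.94 and 12.1 FPKM in the control lungs and 22.1, 8.65 and 25.5 FPKM in the model lungs. Control 1, model 1 and model 3 were high and the other 3 were low, so each group held both levels. The difference was 0.30 ± 0.44 (SE) on the log2 scale, with a 95% interval from -0.75 to 1.35 and an adjusted p of 0.955. It lay between 0.02 without model 3 and 0.75 without model 2, and was 0.13 when transcripts were weighted by length. Keap1 (chromosome 8, 22249496 to 22259783, minus strand), the adaptor that targets NRF2 for degradation, was 5.45, 5.12 and 5.04 FPKM in control and 5.57, 5.09 and 5.73 FPKM in model lungs. Its 6 values lay within a ratio of 1.14 of each other, the smallest spread in the set, with a difference of 0.06 ± 0.10 (SE) and an adjusted p of 0.965. Transcript levels do not measure NRF2 protein, which is controlled mainly by degradation.

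Glutathione is made in a pair of steps and recycled by a reductase. Gclm (chromosome 2, 225827504 to 225847874, plus strand), the modifier subunit of glutamate-cysteine ligase, was 10.9, 10.8 and 11.6 FPKM in the control lungs and 10.4, 8.69 and 8.92 FPKM in the model lungs. Every model value lay below every control value, although model 1 and control 2 differed by little. The difference was -0.23 ± 0.10 (SE), with a 95% interval from -0.46 to 0.004, a limma p of 0.0529 and an adjusted p of 0.933. The non-overlap depended on a second transcript in the sum. This single-exon transcript of 1350 bases (225849603 to 225850952, same strand), downstream of the annotated gene, was 4.35, 4.83 and 3.45 FPKM in control and 3.70, 2.76 and 2.15 FPKM in model lungs. The annotated transcript alone was 6.56, 5.93 and 8.12 FPKM in control and 6.70, 5.92 and 6.76 FPKM in model lungs, and those ranges overlap. With annotated transcripts only, the Gclm difference was -0.07, with a limma p of 0.625.

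The other genes of glutathione supply overlapped between groups. Gclc, the catalytic subunit of the same ligase, was 5.77, 7.30 and 9.16 FPKM in control and 7.07, 5.76 and 8.53 FPKM in model lungs. Its spread within each group was wider than the difference of -0.05 ± 0.19 (SE). A single-exon transcript of 247 bases inside an intron held 21.9% to 38.6% of the Gclc sum. The annotated Gclc transcript alone was 0.806, 1.14 and 4.33 FPKM in control and 1.08, 0.195 and 3.52 FPKM in model lungs, a difference of -0.29. Gsr, glutathione reductase, was 14.6, 13.2 and 14.3 FPKM in control and 13.1, 12.1 and 18.0 FPKM in model lungs, so the highest and lowest values were both in the model group. Gss, glutathione synthetase, had means of 4.31 ± 0.432 and 3.99 ± 0.0793 FPKM (SD, n = 3 each). Slc7a11, the cystine transporter subunit, was near the detection limit at 0.124, 0.0738 and 0.185 FPKM in control and 0.104, 0.106 and 0.142 FPKM in model lungs. Of the 5 genes, 1 was above 0 and 4 below, and Gclc changed sign after rescaling to TPM (0.03) and without small RNA names (0.004), as did Gss with annotated transcripts only (0.07). Summed over this class, FPKM were 36.9 ± 2.05 in control and 35.0 ± 4.43 in model lungs (SD, n = 3 each).

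The glutathione peroxidases held the gene with the smallest p of the set. Gpx1 (chromosome 8, 117117430 to 117118522, plus strand), the abundant cytosolic selenoprotein that reduces hydrogen peroxide, was 84.3, 81.4 and 82.1 FPKM in the control lungs and 97.6, 95.6 and 91.4 FPKM in the model lungs. The groups stood apart and the spread within each was small. The ratio of the means was 1.15, and the difference was 0.20 ± 0.07 (SE), with a 95% interval from 0.03 to 0.36. The limma p was 0.0252 and the adjusted p was 0.933, so the gene was not called among 19645. Over all alternatives the difference lay between 0.17 and 0.28, its limma p between 0.0159 and 0.134, and its adjusted p was at least 0.820. Its annotated transcript alone was 82.3, 80.5 and 81.2 FPKM in control and 97.2, 94.2 and 91.3 FPKM in model lungs, which also did not overlap.

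Gpx3, the secreted plasma form, was the most abundant gene of the set at 294, 230.2 and 176 FPKM in control and 244, 206 and 269 FPKM in model lungs. Control values alone spanned the model range, and the difference was 0.06 ± 0.21 (SE). Gpx2, the form known from gut and airway epithelium, was 14.6, 30.9 and 10.0 FPKM in control and 35.1, 11.1 and 35.8 FPKM in model lungs. Values near 11 and near 35 FPKM occurred in the model group and the 95% interval of the difference ran from -0.81 to 1.85, the widest in the set. The difference was 0.52, from 0.18 without control 3 to 1.05 without model 2. Gpx4, which reduces lipid peroxides in membranes, lay between 33.5 and 36.6 FPKM in control and between 30.9 and 41.2 FPKM in model lungs. The endoplasmic reticulum forms were lower, with Gpx7 between 4.07 and 6.84 FPKM and Gpx8 between 1.94 and 2.67 FPKM. All 6 differences were above 0, but that of Gpx3 was -0.05 after quantile normalization and that of Gpx2 was -0.19 with annotated transcripts only. The class summed to 378 ± 65.6 FPKM in control and 406 ± 45.4 FPKM in model lungs (SD, n = 3 each).

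Among 10 glutathione transferases, 3 differences were above 0 and 7 below, and the groups overlapped for all of them. After rescaling to TPM, Gstm1 (0.08), Gstp1 (0.02) and Gstt1 (0.06) were above 0 as well. Gstp1, the pi class enzyme whose promoter stretch with an antioxidant response core is shown above, was the most abundant. It was 84.9, 79.8 and 89.8 FPKM in control and 77.5, 76.5 and 90.3 FPKM in model lungs, a difference of -0.06 ± 0.09 (SE). Mgst2, a microsomal enzyme that also makes leukotriene C4, had the largest estimate of the set on the plain sum. It was 7.14, 2.09 and 2.72 FPKM in control and 10.1, 2.62 and 7.18 FPKM in model lungs. The difference of 0.60 ± 0.52 (SE) had a 95% interval from -0.64 to 1.85 and an adjusted p of 0.933, and both groups held low and high lungs. It was 0.04 when transcripts were weighted by length and 1.10 with annotated transcripts only, and it lay between 0.26 without model 1 and 1.07 without model 2. Gsto1, an omega class enzyme with thioltransferase activity, had the smallest p among those below 0. It was 4.43, 6.70 and 6.62 FPKM in control and 4.14, 4.73 and 6.15 FPKM in model lungs, a difference of -0.20 ± 0.19 (SE, adjusted p = 0.934).

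The remaining transferases spanned a wide range of levels. Gstm1, a mu class enzyme, had means of 27.9 ± 2.63 and 29.3 ± 12.3 FPKM (SD, n = 3 each), and Mgst1, the microsomal enzyme that protects membranes, 25.6 ± 4.03 and 23.0 ± 5.26 FPKM. Gsta4, which clears the lipid peroxidation product 4-hydroxynonenal, was 15.4 ± 3.81 and 16.8 ± 7.13 FPKM. Mgst3 was 11.0 ± 1.82 and 11.9 ± 1.46 FPKM. Below these, Gstt2 lay between 3.87 and 8.61 FPKM, Gstt1 between 3.28 and 4.79 FPKM and Gsta3 between 0.9996 and 2.09 FPKM. Alpha and mu class genes have near-identical copies, and the sources used here do not state how reads shared between copies were divided, so the levels of Gsta3 and Gstm1 are uncertain.

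Superoxide dismutases convert superoxide to hydrogen peroxide, which catalase breaks down. Cat, catalase, was 48.1, 39.0 and 36.5 FPKM in control and 45.1, 40.6 and 41.1 FPKM in model lungs, with the highest and the lowest value in the control group. Sod3, the extracellular dismutase for which the lung is known, was 36.2, 36.0 and 26.9 FPKM in control and 36.8, 29.6 and 39.0 FPKM in model lungs. Its difference was 0.09 ± 0.15 (SE, adjusted p = 0.965). Sod2, the mitochondrial enzyme, was 16.4, 17.9 and 25.2 FPKM in control and 19.6, 18.2 and 19.3 FPKM in model lungs, where the 3 model values lay inside the control range. Sod1, the cytosolic copper-zinc enzyme, had means of 22.2 ± 8.65 and 22.8 ± 5.98 FPKM (SD, n = 3 each). Of the 4 differences 3 were above 0, and the exception, Sod2 at -0.04, was 0.04 after rescaling to TPM.

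Peroxiredoxins held no gene whose groups stood apart. Prdx6, the peroxiredoxin known for its role in surfactant phospholipid turnover, was 139, 127 and 123 FPKM in control and 143, 116 and 163 FPKM in model lungs. The difference was 0.11 ± 0.14 (SE). Prdx5, present in mitochondria and peroxisomes, was 22.6, 20.1 and 20.6 FPKM in control and 19.4, 26.2 and 26.1 FPKM in model lungs, so the lowest lung of all was a model lung. Its difference of 0.16 ± 0.13 (SE) had the smallest p of the class (adjusted p = 0.933). Prdx1, the cytosolic form whose promoter stretch is shown above, was 35.5, 33.1 and 43.2 FPKM in control and 35.7, 32.4 and 38.6 FPKM in model lungs. Its difference, -0.06 ± 0.12 (SE), was the only one below 0 among the 6, and it was 0.02 after rescaling to TPM. Prdx2 (37.0 ± 1.37 and 38.9 ± 3.501 FPKM), the mitochondrial Prdx3 (8.24 ± 0.547 and 8.39 ± 0.284 FPKM) and the secretory pathway form Prdx4 (9.46 ± 1.77 and 10.4 ± 2.096 FPKM) differed by less than the larger of their SDs (n = 3 each, control first).

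The thioredoxin system restores most peroxiredoxins with electrons from NADPH. Txnrd2 (chromosome 11, 86667997 to 86716254, minus strand), the mitochondrial reductase, was 6.04, 5.58 and 4.90 FPKM in control and 6.06, 6.16 and 6.69 FPKM in model lungs. The groups did not overlap, but control 1 and model 1 differed by far less than the SD of either group. The difference was 0.17 ± 0.11 (SE), with a 95% interval from -0.10 to 0.43 and a limma p of 0.174 (adjusted p = 0.933). Part of the sum came from a pair of single-exon transcripts inside introns, and its annotated transcripts alone, at 2.90, 2.78 and 2.28 FPKM in control and 3.09, 2.69 and 3.38 FPKM in model lungs, overlapped. Txnrd1, the cytosolic reductase and an NRF2 target, was 14.6, 12.9 and 15.9 FPKM in control and 13.7, 13.2 and 14.5 FPKM in model lungs, inside the control range. Its difference of -0.06 ± 0.10 (SE) was 0.02 after rescaling to TPM, and its sum includes a transcript on the opposite strand. Txn1, the cytosolic thioredoxin, was 45.2, 49.1 and 53.8 FPKM in control and 54.1, 49.7 and 46.7 FPKM in model lungs. Txn2, its mitochondrial counterpart, had means of 16.003 ± 0.904 and 16.9 ± 1.78 FPKM (SD, n = 3 each).

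Nqo1 and Hmox1 are the genes most often read as a sign of NRF2 activity. Nqo1, a quinone reductase, was 9.53, 13.5 and 15.9 FPKM in control and 11.8, 8.42 and 14.95 FPKM in model lungs. Hmox1, the inducible haem oxygenase, was 12.3, 7.72 and 8.33 FPKM in control and 13.6, 9.47 and 7.45 FPKM in model lungs. The groups overlapped for both genes, with differences of -0.14 ± 0.25 and 0.08 ± 0.25 (SE). The constitutive haem oxygenase Hmox2 was 14.1, 11.3 and 13.4 FPKM in control and 13.6, 11.6 and 14.96 FPKM in model lungs. Taking the NRF2 readouts Nqo1, Hmox1, Gclc, Gclm, Txnrd1, Slc7a11 and Gsr side by side, 1 of 7, Gclm, had groups that did not overlap, against 10.7% of all genes, and it overlapped with annotated transcripts only.

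The libraries differed from each other in ways that the treatment did not follow. For 12 genes (Nfe2l2, Keap1, Gpx3, Gpx8, Gsta4, Mgst2, Mgst3, Sod1, Sod3, Cat, Prdx6 and Hmox2), the 3 highest values were those of control 1, model 1 and model 3. This grouping was noticed after the values were seen and receives no test. The same 3 libraries were highest for 7.97% of all genes tested and for 9.03% of those with a mean of at least 1 FPKM. Model 3 was the highest library for 16 of the 40 genes and model 2 the lowest for 10. Control 3 was the lowest for 12 and the highest for 9. The same counts were not made over all genes, so these are not read as particular to the set. Leaving out model replicate 3 moved the median difference of the set from 0.04 to -0.03, and leaving out model replicate 2 moved it to 0.10. Summed FPKM of 8 alveolar type 2 markers were 6361, 4945 and 4595 in control and 6261, 5410 and 6981 in model lungs, with the same 3 libraries highest, as they were for 3 of the 8 markers and for the sum without Sftpc. The sum of 6 alveolar type 1 markers did not have these 3 highest, but 2 of the 6 markers and the sum without Ager did. The sum of 5 macrophage markers, at 46.1, 40.2 and 24.1 in control and 48.5, 27.8 and 46.3 in model lungs, had that order through Cd68 alone. Cd68 was 21.0, 20.7 and 1.30 FPKM in control and 22.2, 1.21 and 22.8 FPKM in model lungs, and none of the other macrophage markers had those 3 libraries highest. The sum of 4 endothelial markers, at 396, 289.8 and 276 in control and 359.6, 321 and 334 in model lungs, had that order too, although 0 of the 4 markers had it singly. The order was another one for the sum of 5 club cell markers, nearly all Scgb1a1, at 4628, 5778 and 7931 in control and 4173, 4819 and 6508 in model lungs. Without Scgb1a1 that sum was 114, 129.8 and 238 in control and 108, 129 and 368 in model lungs, highest in model 3. The part of cell composition in these gene values was not tested.

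**Figure D3:**
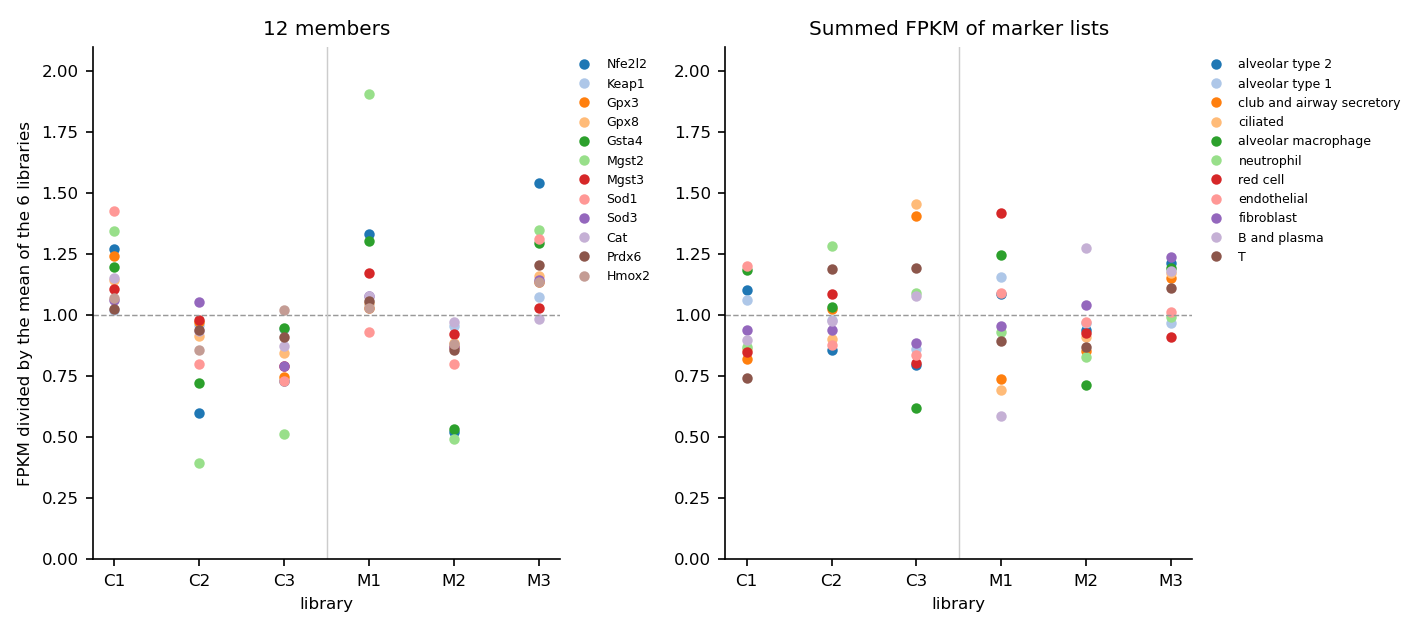
FPKM in each library divided by the mean of the 6 libraries. Left, the 12 genes with their 3 highest values in control 1, model 1 and model 3 (C1, M1 and M3). Right, summed FPKM of marker lists for 11 cell types. The sums of the alveolar type 2, macrophage and endothelial lists lie highest in the same 3 libraries (for macrophages through Cd68), while the club and ciliated lists are highest in control 3 (C3).

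No marker list held a gene with an adjusted p below 0.05. Differences were above 0 for all 8 alveolar type 2, all 6 alveolar type 1 and both adipocyte markers tested (47.5% of all genes). They were below 0 for all 4 T cell markers and all 3 B and plasma cell markers tested. The other lists held genes in both directions. Summed FPKM in control and model lungs ranged from 805 to 993 and 902 to 1078 for alveolar type 1 markers, from 25.6 to 43.4 and 20.6 to 35.0 for ciliated cells, and from 293 to 311 and 317 to 411 for fibroblasts. The ranges were 11.7 to 17.2 and 11.1 to 13.3 for neutrophils, 2052 to 2776 and 2324 to 3620 for red cells, 37.5 to 45.1 and 24.5 to 53.3 for B and plasma cells, and 16.6 to 26.8 and 19.5 to 24.9 for T cells. Cardiac muscle markers were 11.4, 6.88 and 9.95 in control and 6.41, 6.96 and 27.7 in model lungs, so model 3 stood out. Adipocyte markers summed to at most 1.51 FPKM. The summed fibroblast and adipocyte markers were higher in every model lung than in every control lung. Col3a1 made up the largest part of the fibroblast sum, the sum of the other 5 overlapped between groups (133 to 139.7 and 129 to 178 FPKM), and 3 of the 6 markers were below 0. The part of these cells in the gene values was not tested.

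For several genes, the spread between libraries followed the isoform to which the FPKM were assigned. Of the 40 genes, 8 had a highest value more than 2 times the lowest on the plain sum, and 7 when transcripts were weighted by length. Weighting lowered this ratio for 15 genes, left it for 13 and raised it for 12, among them Gpx2 (3.57 to 4.12), Gsta4 (2.45 to 2.88) and Hmox1 (1.83 to 2.24). The assembled Nfe2l2 transcript MSTRG.23188.1 (2328 bases) was 15.4, 0.554 and 0.451 FPKM in control and 15.2, 0.643 and 18.1 FPKM in model lungs. The longer MSTRG.23188.5 (3771 bases) had the reverse order, at 0.429, 5.37 and 6.29 FPKM in control and 0, 2.74 and 0.362 FPKM in model lungs. The 3 libraries with a high Nfe2l2 sum were those in which the short form was high. When transcripts were weighted by their length, the ratio of the highest to the lowest Nfe2l2 value fell from 2.95 to 2.17. The weighted values were 13.5, 9.17 and 11.2 in control and 14.6, 7.59 and 16.5 in model lungs, so the same 3 libraries stayed highest. For Mgst2 the annotated transcript ENSRNOT00000088846 of 384 bases was 5.51, 0.278 and 0.198 FPKM in control and 8.06, 0.588 and 5.77 FPKM in model lungs, and weighting by length moved the ratio from 4.84 to 1.51. For Sod1 the 656-base transcript was 29.0, 13.1 and 11.4 FPKM in control and 16.2, 13.5 and 25.7 FPKM in model lungs, and the ratio moved from 1.96 to 1.18. The isoforms of these genes were picked with their values known.

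**Figure D4:**
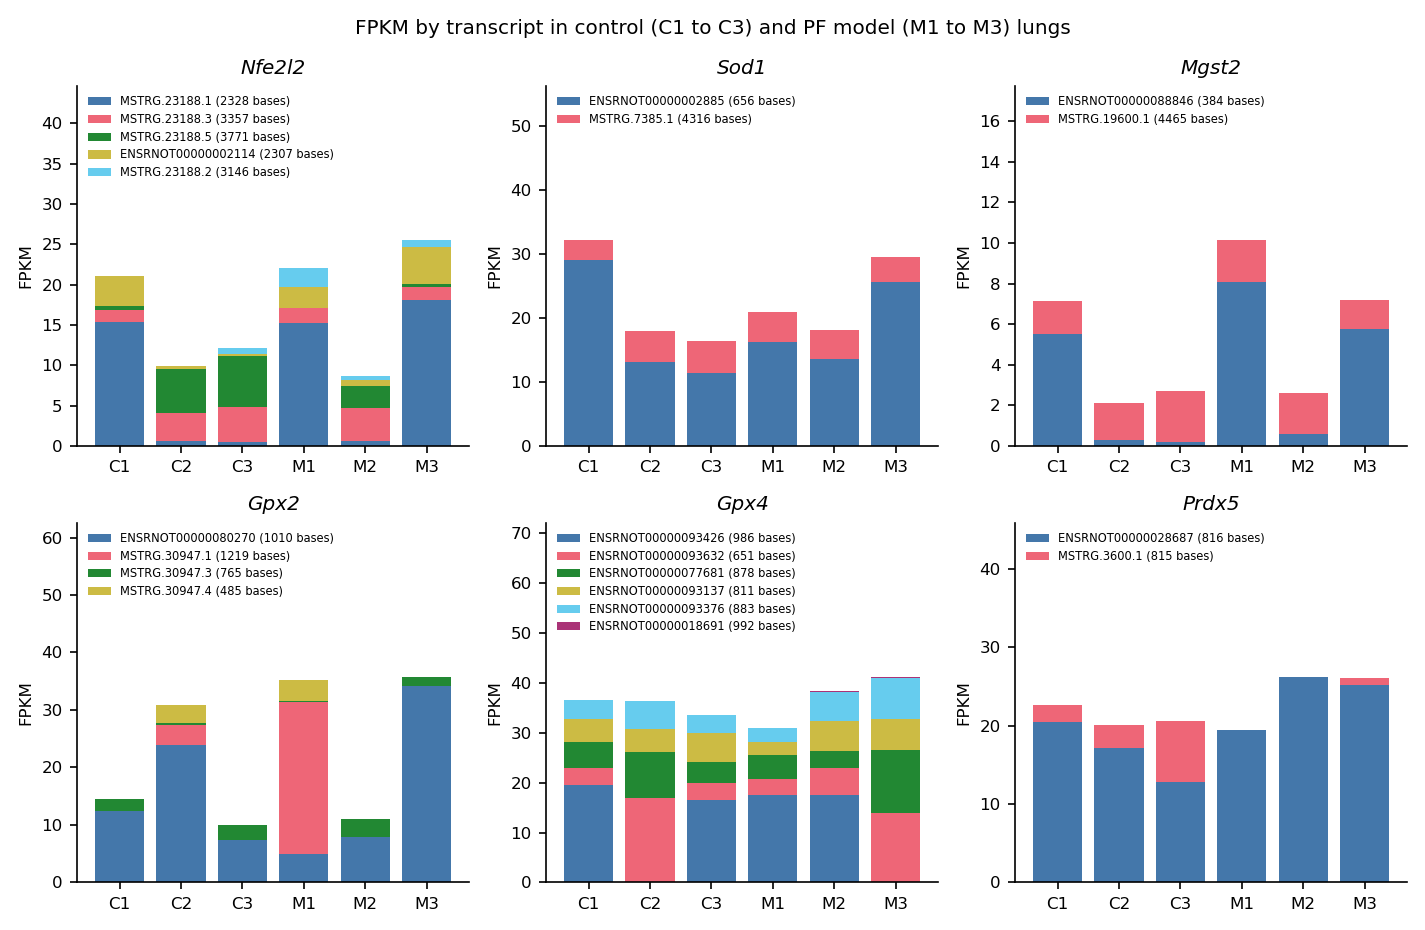
FPKM by transcript for 6 genes in the control (C1 to C3) and PF model (M1 to M3) lungs, as stacked bars from 0 with transcript lengths in the key. Nfe2l2 and Mgst2 reach their high sums through a short transcript in C1, M1 and M3, and the assembled Prdx5 transcript is 0 in M1 and M2.

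Some isoforms were listed in only part of the lungs, in both groups. The assembled Gpx2 transcript MSTRG.30947.1 was 26.4 FPKM in model 1, 3.45 in control 2 and at most 0.00141 in the other 4. The annotated Gpx4 transcript ENSRNOT00000093426 was listed at 0 in control 2 and model 3 and lay between 16.6 and 19.5 FPKM in the other 4, while the Gpx4 sum spanned only 30.9 to 41.2 FPKM. Such values are estimates that divide shared reads among overlapping transcripts.

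At the level of transcripts, 0 of 90 tested passed an adjusted p below 0.05, against 0.0277% of 64867 transcripts. Of the 90, 2 had an unadjusted p of at most 0.05 (4.53% of all transcripts), both lower in model lungs (2.65%) and 0 higher (1.88%), and both also passed the thresholds of the study's methods (2.98%). The assembled Prdx5 transcript MSTRG.3600.1 (chromosome 1, 222164462 to 222168160, minus strand) was 2.13, 2.91 and 7.78 FPKM in control and 0, 0 and 0.942 FPKM in model lungs. Its difference was -1.93 ± 0.48 (SE), with a limma p of 0.00763 and an adjusted p of 0.945. The annotated Prdx5 transcript of almost equal length was 20.5, 17.2 and 12.8 FPKM in control and 19.4, 26.2 and 25.1 FPKM in model lungs, a difference of 0.48 ± 0.20 (SE) with a limma p of 0.0589 and an adjusted p of 0.945. The other transcript was the short annotated form of Gsta3, ENSRNOT00000077372, at 0.195, 0.424 and 0.213 FPKM in control and 0.1003, 0.0898 and 0.0998 FPKM in model lungs. At these low levels its difference was -0.22 ± 0.08 (SE), with a limma p of 0.0383 and an adjusted p of 0.945. Groups that did not overlap were also seen for transcripts of Gpx1, Gss, Mgst3 and Txnrd1, for 6 of the 90 in all against 10.4% of all transcripts. They were higher in model lungs for 2 (4.12% of all transcripts) and lower for 4 (6.29%). The Mgst3 transcript was at most 0.00654 FPKM in all lungs but control 3. The Gss transcript was a single-exon one inside an intron, and the annotated Gss transcript overlapped between groups.

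Related genes outside the set gave no call either. A list of 83 further names covered other glutathione and thioredoxin enzymes, the supply of NADPH, other NRF2 targets and partners, and enzymes that produce oxidants, and 72 of the 73 names found were tested. Of these, 0 passed an adjusted p below 0.05. At an unadjusted p of at most 0.05, 2 were higher in model lungs (2.14% of all genes) and 0 lower (2.77%). Taldo1, transaldolase of the pentose phosphate pathway, was 26.1, 27.6 and 30.3 FPKM in control and 34.0, 30.8 and 36.2 FPKM in model lungs, with a difference of 0.26 ± 0.09 (SE), a limma p of 0.0308 and an adjusted p of 0.933. Ncf1, a cytosolic subunit of the phagocyte NADPH oxidase, was 9.55, 9.25 and 8.26 FPKM in control and 16.3, 10.7 and 10.7 FPKM in model lungs. Its difference was 0.42 ± 0.17 (SE), with a limma p of 0.0474 and an adjusted p of 0.933. Model values stood above control values for 7 of the 72 genes, these 2 included, against 4.82% of all genes, and below them for 1, Idh1, against 5.87%. The median difference was 0.02.

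By group, 5 of 17 further glutathione genes were above 0 and 12 below. Of 11 thioredoxin and methionine sulfoxide genes 6 were above 0, of 7 NADPH genes 6, of 26 NRF2 targets and partners 16, and of 11 oxidant producing genes 7. The most abundant genes of the list overlapped between groups. Fth1, the ferritin heavy chain, was 504, 472 and 389.9 FPKM in control and 506, 422 and 522 FPKM in model lungs. Txnip, which binds and inhibits thioredoxin, was 259, 287 and 329 FPKM in control and 350.2, 302 and 178 FPKM in model lungs, with the highest and the lowest value in the model group. Aldh1a1, a retinal and aldehyde dehydrogenase, was 70.1, 64.7 and 71.1 FPKM in control and 71.0, 56.7 and 88.0 FPKM in model lungs.

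Circular RNAs of the set were rare. Of 5216 circRNAs, 4 came from 3 of the genes, and none of these reached the 10 back-splice reads needed for a test, as 226 circRNAs did. The most abundant, from Txnrd1 (chromosome 7, 26965506 to 26969212, minus strand, 3 exons), had 0, 1 and 0 reads in the control lungs and 2, 2 and 0 reads in the model lungs. A pair of circRNAs from Gsr had 1 and 2 reads in all and one from Gstt1 had 1 read, out of 2037 to 2964 back-splice reads per library. A difference between groups was not detectable at this depth.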

How the data were processed

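Lung RNA of 3 control and 3 PF model rats was sequenced as paired reads of 150 bases from stranded libraries depleted of rRNA. The labels' condition gave the groups. For linear RNAs, the authors used Cutadapt for trimming and Bowtie2 and Tophat2 for mapping (the submitters' processing notes list HISAT2 and TopHat), assembled transcripts with StringTie, and deposited FPKM from StringTie and Ballgown. They also deposited coverage, a signal per base that is not scaled to library size, which was used only to estimate reads as coverage times length divided by 150. For circRNAs, counts of back-splice reads from CIRCexplorer and Tophat-fusion were deposited unscaled, beside SRPBM, a signal that was not used. The genome build is not given in the sources used here.

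Gene FPKM were plain sums over all transcripts with a gene's name, including intronic, downstream and antisense fragments that the assembly assigned to it. Genes or transcripts above 0 FPKM in at least 3 of the 6 samples were compared with limma 3.58.1 (lmFit and eBayes with trend, two-sided) on log2(FPKM + 1) in R 4.3.3, with Benjamini-Hochberg adjustment over all of them. Differences are on that scale, model minus control, and understate the change most for genes near 1 FPKM or below, and less for genes at a few FPKM. Exact permutation of 3 against 3 rats allows no p below 0.1 and was not used. Cell marker and pathway lists were described by counts and medians, with no set test. The members, lists and tests were chosen with earlier results of these data known. Every member is accounted for. Values in each sample are given for Nfe2l2, Keap1, the usual NRF2 readouts, in each class the smallest p in each direction and the most abundant gene, and every gene that passed a threshold or did not overlap. Of the pathway list, genes at p of at most 0.05 and the 3 most abundant are named. Gpx2, Idh1, all marker genes named and the isoforms were named after their values were seen.

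Alternatives were other pseudocounts, filters and scalings, sums weighted by length, annotated transcripts only, limma without trend, a replicate block and leaving out each library. Sums over annotated and assembled splice variants only were added after the data were seen. The limma script was tested on simulated data. Promoters were searched with Python 3.11.15, and tables and figures were made with pandas 2.3.3, numpy 2.4.6 and matplotlib 3.10.9.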

Additional observations from a re-analysis of the deposited data

How the results depend on the processing

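Under each alternative run for them (18 for genes), 0 of the antioxidant genes, their transcripts and the pathway genes passed an adjusted p below 0.05 in limma, and the lowest adjusted p of a member gene was 0.820. Of 718 gene values, 649 kept their direction and 69, in 30 genes, did not, of which 3 were larger than their standard error. Gpx1, Gclm, Txnrd2, Prdx5, Mgst2, Nfe2l2, Keap1, Gpx8, Gsta3 and Gsto1 kept their direction throughout, but not their size. With a library left out, Nfe2l2 ran from 0.025 to 0.75, Mgst2 from 0.26 to 1.07, Gpx2 from 0.18 to 1.05, Gclm from -0.30 to -0.18, Txnrd2 from 0.10 to 0.23 and Prdx5 from 0.090 to 0.30. Over all alternatives Mgst2 was between 0.037 and 1.10. The causes of the changes were not tested. The differences of genes that changed direction under other settings than a left-out library were as follows. With TPM they were Gclc 0.031, Gstm1 0.080, Gstp1 0.024, Gstt1 0.057, Sod2 0.045, Prdx1 0.024 and Txnrd1 0.022. Without small RNA names they were Gclc 0.0043, Gstm1 0.050, Gstt1 0.027 and Sod2 0.015, with the upper quartile Gstm1 0.020, and with quantile normalization Gpx3 -0.052 and Gstt1 0.012. Weighting by length gave Gsta4 -0.013, Cat -0.034 and Txnrd1 0.012. Annotated transcripts only gave Gss 0.070, Gpx2 -0.19, Mgst3 -0.79 and Sod2 0.23, and adding assembled splice variants gave Gss 0.070 and Txnrd1 0.019. The Mgst3 value rests on control 3, where its annotated transcript was 4.16 FPKM, against at most 0.00654 in the other lungs.

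Leaving out each library in turn gave ranges that crossed 0 for the following genes: Gclc -0.19 to 0.10, Gsr -0.14 to 0.13, Slc7a11 -0.047 to 0.024, Gpx3 -0.13 to 0.24, Gpx4 -0.043 to 0.16, Gpx7 -0.14 to 0.15, Gsta4 -0.15 to 0.45, Gstm1 -0.31 to 0.23, Gstt1 -0.14 to 0.078, Gstt2 -0.34 to 0.032, Mgst1 -0.29 to 0.032, Mgst3 -0.0057 to 0.22, Sod1 -0.12 to 0.36, Sod2 -0.16 to 0.14, Sod3 -0.046 to 0.21, Cat -0.035 to 0.16, Prdx1 -0.14 to 0.050, Prdx2 -0.00060 to 0.12, Prdx3 -0.021 to 0.065, Prdx4 -0.021 to 0.25, Prdx6 -0.0070 to 0.24, Txn1 -0.036 to 0.087, Txn2 -0.0029 to 0.13, Txnrd1 -0.13 to 0.0084, Nqo1 -0.33 to 0.061, Hmox1 -0.13 to 0.27 and Hmox2 -0.043 to 0.14.

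Member genes at an unadjusted p of at most 0.05 numbered 1 as reported, 2 with no filter, weighting by length or limma without trend, 0 without small RNA names or with quantile normalization, and 0 to 2 with a library left out. The count was 0 without control replicate 1, 2 or 3 or model replicate 2, and 2 without model replicate 1. Member transcripts at that p numbered 2 as reported, 1 with a mean of at least 1 FPKM, and 2 to 6 with a library left out (6 without control replicate 1, 4 without control replicate 3 or model replicate 1). With the fold threshold added they numbered 2, then 1 with a mean of at least 1 FPKM or without trend, and 1 to 4 with a library left out (4 without control replicate 1 or 3, 1 without model replicate 1 or 3). Pathway genes at p of at most 0.05 numbered 2, then 4 with TPM, 0 without small RNA names, 1 with weighting by length, with splice variants added or without trend, and 0 to 5 with a library left out (0 without control replicate 1 or 2, 1 without control replicate 3 or model replicate 1, 5 without model replicate 2). With the fold threshold they numbered 0, then 1 with a pseudocount of 0.1, no filter, TPM or annotated transcripts only, and 0 to 1 with a library left out (1 without model replicate 3). With a minimum of 5 reads, 1 circRNA of the set passed, and as none reached 10 reads the DESeq2 alternative gave no value.

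The replicate numbers in the labels were not treated as pairs. Deviations from group means of same-numbered control and model samples correlated at 0.0667, 0.0275 and -0.0867 over 14320 genes, and not every sample correlated best with its own number. With the replicate block, 0 member genes had an adjusted p below 0.05, 1 member gene and 2 pathway genes had an unadjusted p of at most 0.05, and member transcripts fell to 1 at that p and to 1 with the fold threshold.

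With 3 rats a group, a difference of 1.5-fold or more on the log2(FPKM + 1) scale lay inside the 95% interval for 12 genes. For Slc7a11, which is not among these, the interval on that scale does not bound the fold change in FPKM. Depth limits Slc7a11 and the circRNAs.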
